A study of Mus musculus with 6 samples.

Results

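Matricellular and fibrillar glycoproteins are secreted proteins that fill the space between collagen fibres and the cell surface. The group examined here has 10 genes, chosen by symbol from the 35976 genes of the count table: Fn1, Vcan, Tnc, Postn, Thbs1, Thbs2, Sparc, Fbn1, Fbn2 and Spon1. Of these, 9 passed the filter on low counts, and Spon1 had no read in any library. They were chosen by name and function, with earlier results of these data known; no cutoff on measured values was used.

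RNA was measured in cultured mouse chondrocytes (the cartilage cell type) of the C57BL/6 x 129S4/SvJae background, labelled as coming from hind limb articular cartilage at embryonic day 18.5. All 6 cultures were grown on tissue culture plastic in medium with 10% serum and ascorbate for 16 population doublings. All received doxycycline at 2 µg/ml, which induced the transgene. In the H3K9M group (replicates 1, 3 and 5) this encodes a histone H3 with methionine in place of the lysine at residue 9, and the genotype label gives methylation of that lysine as suppressed. The H3WT group (replicates 1, 2 and 4) is the wild-type control. Values below follow this order of replicates. The comparison asks how the RNA of expanded chondrocytes differs when methylation of this residue, a mark of silenced chromatin, is suppressed. The labels used here do not give the cell types that carry the transgene, nor whether a replicate was 1 embryo or a pool. P-values therefore measure the spread between these cultures, whatever its origin.

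Fibronectin, the product of Fn1, is assembled into fibrils at the cell surface through integrins. Fibrillins, from Fbn1 and Fbn2, form the microfibrils that carry elastic fibres and hold latent TGF-beta complexes. Versican, tenascin-C, periostin, the thrombospondins and SPARC are called matricellular where they tune adhesion and collagen assembly more than they bear load. In cartilage most of these genes are better known from the perichondrium, the joint surface, or chondrocytes that flatten in culture than from the cartilage interior.

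A feature that several of these proteins share is the arginine-glycine-aspartate tripeptide, the site through which fibronectin is bound by integrins. The coding sequences of 5 of the 10 genes (Fn1, Thbs1, Thbs2, Fbn1 and Fbn2) hold its codons in frame, against 7.26% of the 21504 mouse genes with a complete coding transcript. Among the 12739 genes whose coding sequence is at least as long as that of the shortest member, the share was 10.4%. That member is Sparc, with 332 codons, while the 5 genes with the tripeptide have 1171 to 2907. This share is therefore not matched to their length. The stretches below show these codons in capitals with 30 bases on each side, 5′ to 3′, from the longest coding transcript in GENCODE M21 (GRCm38). They were chosen because they show how the 2 most abundant members, Fn1 and Thbs1, and a gene pair (Thbs1 and Thbs2) compare at this tripeptide.
Fn1, codon 1614 of 2477: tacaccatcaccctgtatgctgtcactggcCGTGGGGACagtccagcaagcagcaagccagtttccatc
Thbs1, codon 927 of 1171: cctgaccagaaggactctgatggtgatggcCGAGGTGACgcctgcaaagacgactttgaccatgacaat
Thbs2, codon 928 of 1172: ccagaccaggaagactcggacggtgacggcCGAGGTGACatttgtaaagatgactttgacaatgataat
Fbn1, codon 1543 of 2873: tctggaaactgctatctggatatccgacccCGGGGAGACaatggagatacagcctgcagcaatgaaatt
A match shows only that these letters are present. Fn1 holds a second in-frame match at codon 2181, and Fbn2 holds 2, at codons 1054 and 1579. The coding sequences of Thbs1 and Thbs2 were 74.3% identical over 3372 aligned bases, and those of Fbn1 and Fbn2 73.3% identical over 8397. In a search for transcripts of other genes with at least 90% identity over 200 bases, 9 of the 10 members matched none. Fbn1 matched Gm9913 (100% over 2442 bases), which lies on the opposite strand of Fbn1 and is not a row of the count table. The strand setting of the counts is not given in the sources used here. The spans of Fn1, Vcan, Tnc, Thbs1, Fbn1 and Fbn2 overlap genes on their opposite strand, among them Apol7d at Fn1 and 8030451A03Rik at Tnc. Without the strand setting, it cannot be told whether these genes affected the counts. The overlaps are of whole gene spans, introns included, so the number of reads concerned is not known.

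Total counts ran from 15113675 to 19606082 per library. The labelled cell type was checked against 14 chondrocyte markers. All 13 that were in the table were detected in every library, with Col2a1 at 4913 to 14110 CPM (counts scaled to a common library total, with TMM library factors) and Acan at 137 to 722. Fibroblast collagens were abundant beside them, with Col1a1 between 3685 and 18928 CPM. Endothelial markers were near 0 (summed level 0.104 to 0.825 CPM over 5 genes, with Cdh5 and Emcn at 0 in every library), and so were macrophage and blood markers (3.37 to 15.2 CPM over 7 genes, with Ptprc, Adgre1, Tyrobp and Hbb-bs at 0 in every library, and Cd68 up to 12.8 and Csf1r up to 3.71 CPM). H3K9M replicate 3 and H3WT replicate 2 stood apart in part: counts in pairs of libraries that included either of them differed by a chi-square of 68.9 to 156.5 per degree of freedom, and by 28.3 to 83.9 in pairs without them.

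The glycoprotein genes were a large part of the RNA of these cells. Their reads took 3.90% of all counts in H3WT replicate 2 (95% Wilson interval 3.89 to 3.91) and 5.69% in H3WT replicate 4 (5.68 to 5.70), the lowest and highest libraries. These intervals cover counting error only. Thbs1 had the highest mean CPM of all 13761 tested genes, Fn1 ranked 2 and Sparc 11. These ranks are not corrected for transcript length. Per kilobase, Thbs1 ranked 1, Fn1 8 and Sparc 9 of the 13312 genes with a known length. Together Fn1 and Thbs1 held 82.2% to 88.0% of the members' reads in a library.

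Levels of different genes were compared per kilobase of the longest annotated transcript. On this scale the means over 6 libraries were 3910 CPM per kb for Thbs1, 2023 for Fn1 and 1994 for Sparc. The ranges of these 3 genes overlapped, so their order did not hold in every library. In H3K9M replicate 3, Fn1 (2659 CPM per kb) stood above Thbs1 (1767). A wide gap followed, since the lowest Sparc value (1454) was far above the highest of any other member. Postn reached 163 CPM per kb in H3WT replicate 4, and Thbs2 reached 148 in H3K9M replicate 1. The means were 87.8 for Thbs2, 76.3 for Tnc, 59.0 for Fbn1 and 53.9 for Postn, with overlapping ranges. Vcan (10.1) and Fbn2 (9.05) were lowest, again with overlapping ranges.

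**Figure D1:**
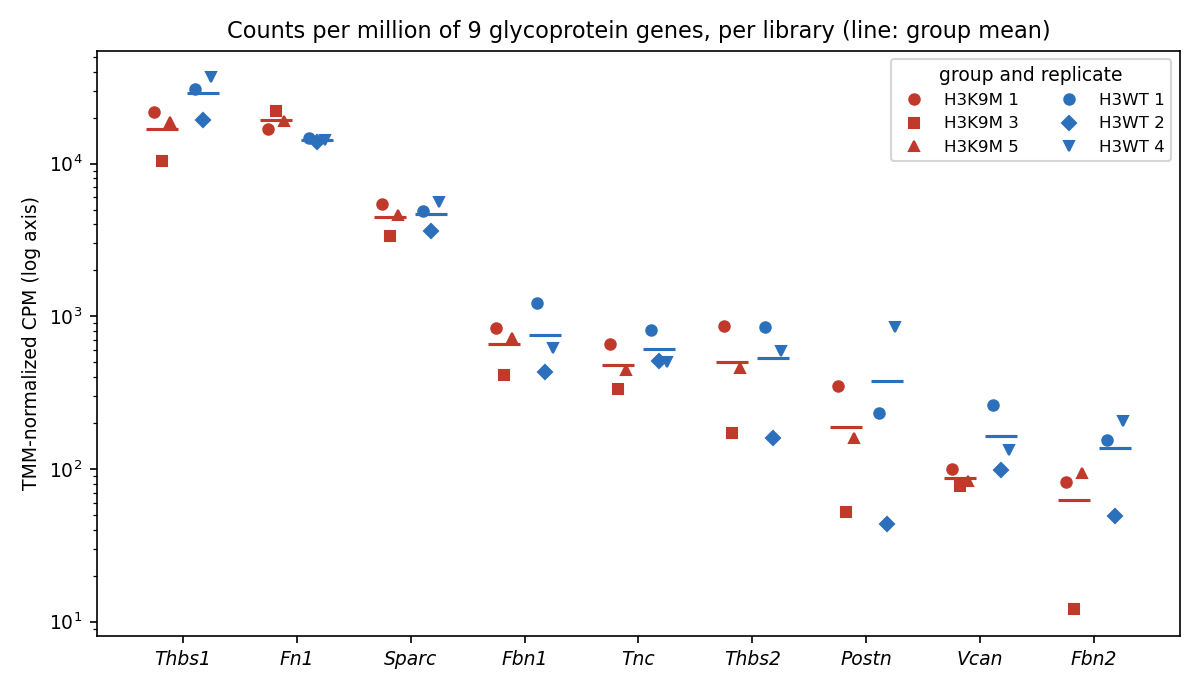
TMM-normalized CPM (log axis) of the 9 detected genes in each library, H3K9M in red and H3WT in blue, with horizontal lines at the group means. Fn1 is the only gene whose groups do not overlap, and H3K9M replicate 3 and H3WT replicate 2 lie low for Thbs2, Postn and Fbn2.

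Between the groups, no member passed the test. Of the 9 tested members 0 had an adjusted p under 0.05 (edgeR quasi-likelihood test, Benjamini-Hochberg over all 13761 genes), against 0% of all tested genes, and DESeq2 also called 0 of the 9 where it called 2.83% of all genes. The edgeR test also called 0 of the 9 without H3WT replicate 2, where it called 0.639% of all genes. At an unadjusted p under 0.05 there were 3 members, where 12.2% of all genes reached that level: Fn1, higher in H3K9M (6.42% of all genes), and Vcan and Thbs1, lower (5.77%). The members' median log2 fold change was -0.35, with 8 of 9 below 0, beside a median of -0.003 over all tested genes, of which 50.4% were below 0. Once transcript length and GC content were adjusted for, the members' median was -0.15, and Thbs2 (0.019) and Fbn1 (0.078) were above 0. The groups did not overlap for 1 member, Fn1, against 19.4% of all genes. Its H3K9M libraries were the higher ones, as for 10.7% of genes, and no member had all H3K9M libraries lower, as 8.68% of genes did.

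Fn1 encodes fibronectin, the main adhesive glycoprotein of the pericellular matrix. The gene lies at chr1:71585520-71653200 (GRCm38, minus strand). Its CPM in the H3K9M libraries was 16981, 22113 and 19009, and in the H3WT libraries 14725, 13783 and 14315. Every H3K9M library was above every H3WT library, and the H3WT libraries lay close together while the H3K9M libraries were spread out. The means were 19368 ± 2584 and 14274 ± 473 CPM (SD, n = 3 each). The edgeR log2 fold change (LFC) of H3K9M over H3WT came to 0.44 (SE 0.18, 95% interval 0.03 to 0.85), with an adjusted p of 0.382. It was positive under all 14 alternatives that were run, from 0.32 to 0.67. DESeq2 gave an adjusted p of 0.0734.

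Thbs1 encodes thrombospondin-1, a secreted trimer that binds CD47 and can activate latent TGF-beta. The gene lies at chr2:118111876-118127133 (plus strand). Its CPM in the H3K9M libraries was 21666, 10331 and 18649, and in the H3WT libraries 30639, 19173 and 36748. The overlap between the groups came from H3K9M replicate 1, which exceeded H3WT replicate 2 by a small margin. Group means were 16882 ± 5871 and 28853 ± 8922 CPM (SD, n = 3 each), an LFC of -0.77 (SE 0.34, 95% interval -1.55 to 0.00, edgeR adjusted p 0.41). It was -0.51 without H3K9M replicate 3.

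Since Fn1 and Thbs1 leaned in opposite directions, their ratio within each library was computed, a value that does not depend on library scaling. This ratio was chosen after the values were seen. Counts per kb of Fn1 over Thbs1 came to 0.551, 1.505 and 0.717 in the H3K9M libraries, against 0.338, 0.506 and 0.274 in the H3WT libraries. All H3K9M values lay above all H3WT values, though the lowest H3K9M value and the highest H3WT value were close. On the log2 scale the mean ratio differed by 1.22 between the groups, with a two-sided exact permutation p of 0.1 that is the smallest 3 against 3 allow (adjusted over 3 ratios 0.3). Without H3K9M replicate 3 the difference was 0.80, over 1.5 times smaller.

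Thbs2, the paralog of Thbs1, encodes a trimer known for its part in collagen fibril assembly and as an inhibitor of angiogenesis. It lies at chr17:14665500-14694235 (minus strand) and had 869, 171 and 460 CPM in H3K9M against 854, 161 and 591 in H3WT. The groups covered the same range: each had a high library, a middle one and a low one. Its LFC of -0.10 (SE 0.76, edgeR adjusted p 0.976) had a 95% interval of -1.94 to 1.74, wide enough to hold a several-fold difference either way. Its sign turned without H3K9M replicate 3 (0.32) or without H3WT replicate 1 (0.41). The ratio of Thbs1 to Thbs2, in counts per kb, was 25.1, 61.0 and 40.9 in H3K9M and 36.2, 120 and 62.7 in H3WT. These values overlapped, with a log2 difference of -0.71 and a two-sided exact permutation p of 0.4 (adjusted 0.4). It was -0.26 without H3WT replicate 2.

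**Figure D2:**
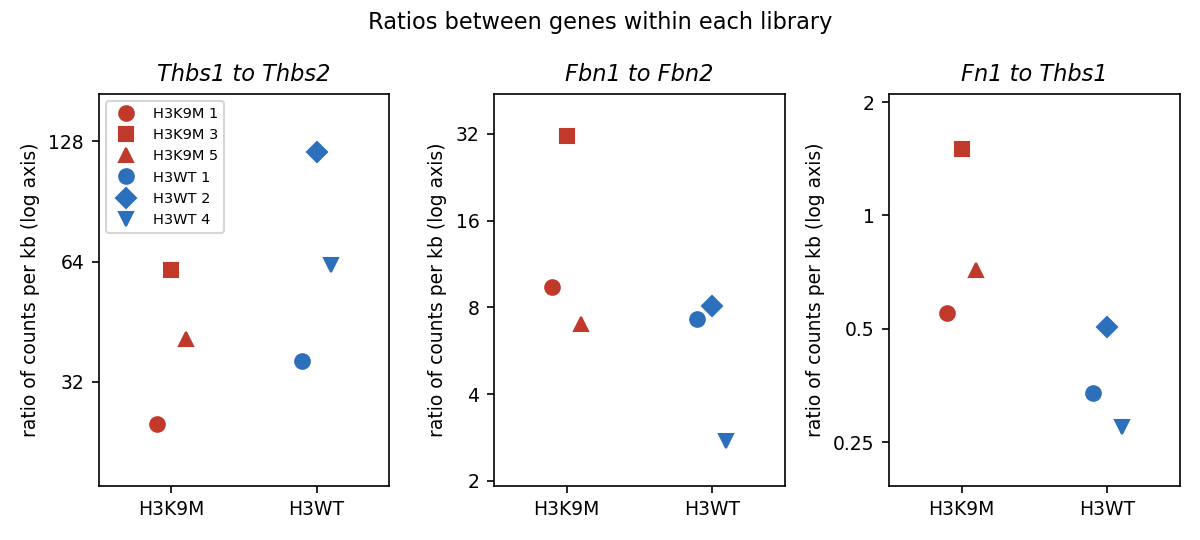
Ratios of counts per kb (log axes) of Thbs1 to Thbs2, Fbn1 to Fbn2 and Fn1 to Thbs1 in each library, by group. The groups overlap for the ratios of the paralog pairs and not for Fn1 to Thbs1, where the H3K9M libraries run from 0.551 to 1.505 and the H3WT libraries from 0.274 to 0.506.

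Vcan encodes versican, a large chondroitin sulfate proteoglycan that binds hyaluronan and is typical of the matrix before cartilage forms. It lies at chr13:89655312-89742509 (minus strand) and had 100.5, 77.8 and 83.5 CPM in H3K9M against 262, 99.1 and 133 in H3WT. The H3K9M libraries were close to each other, and H3WT replicate 1 stood well above all others, while H3WT replicate 2 was within the range of H3K9M. The means were 87.3 ± 11.8 and 165 ± 86.1 CPM (SD, n = 3 each), and the LFC was -0.92 (SE 0.35, 95% interval -1.74 to -0.10, edgeR adjusted p 0.371). It was less than 0.5 times as large, -0.41, when H3WT replicate 1 was left out.

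Tnc encodes tenascin-C, a six-armed glycoprotein that loosens adhesion to fibronectin. It lies at chr4:63959785-64047015 (minus strand) and had 658, 332 and 443 CPM in H3K9M against 808, 509 and 503 in H3WT. The highest value was in H3WT replicate 1 and the lowest in H3K9M replicate 3, and the groups overlapped. Its LFC of -0.35 (SE 0.29, 95% interval -1.02 to 0.33, edgeR adjusted p 0.671) shrank to -0.08 when H3WT replicate 1 was left out.

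Sparc (chr11:55394500-55423183, minus strand) encodes a collagen-binding protein that acts in procollagen handling. It was the steadiest member after Fn1, with 5454, 3345 and 4638 CPM in H3K9M and 4910, 3607 and 5564 in H3WT. Both groups covered about the same range. The LFC of Sparc was -0.07 (SE 0.24, 95% interval -0.61 to 0.48, edgeR adjusted p 0.94), and its sign turned without H3K9M replicate 3 (0.12) or H3WT replicate 4 (0.08).

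Postn encodes periostin, a fasciclin-domain protein of periosteum, perichondrium and tendon. It lies at chr3:54361109-54391037 (plus strand) and had 348, 52.2 and 160 CPM in H3K9M and 232, 43.9 and 853 in H3WT. The highest library was 19.4 times the lowest, the widest span of any member, and both extremes were H3WT libraries. Its LFC was -1.01 (SE 1.10, 95% interval -3.69 to 1.67, edgeR adjusted p 0.768). Without H3WT replicate 4, the highest library, it turned to 0.44.

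The fibrillin genes stood at different levels. Fbn1 (chr2:125300594-125507993, minus strand), the fibrillin of most adult microfibrils, had 833, 413 and 717 CPM in H3K9M and 1226, 429 and 616 in H3WT. The groups overlapped, with an LFC of -0.21 (SE 0.43, 95% interval -1.23 to 0.81, edgeR adjusted p 0.889). It turned to 0.32 without H3WT replicate 1 and to 0.04 without H3K9M replicate 3. Fbn2, the fibrillin prominent in embryonic tissue, had 81.8, 12.1 and 94.5 CPM in H3K9M and 155, 48.9 and 206 in H3WT. H3K9M replicate 3 was lowest, and the other H3K9M libraries lay between the lowest and the middle H3WT library. For Fbn2 the LFC was -1.12 (SE 0.82, 95% interval -3.13 to 0.88, edgeR adjusted p 0.632), and -0.62 without H3K9M replicate 3.

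The ratio of Fbn1 to Fbn2, in counts per kb, was 9.39, 31.6 and 6.99 in H3K9M and 7.28, 8.10 and 2.75 in H3WT. The high value belonged to H3K9M replicate 3 and the low one to H3WT replicate 4, and the rest were alike. The log2 difference was 1.23 with a two-sided exact permutation p of 0.3 (adjusted 0.4), and 0.57 without H3K9M replicate 3.

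**Figure D3:**
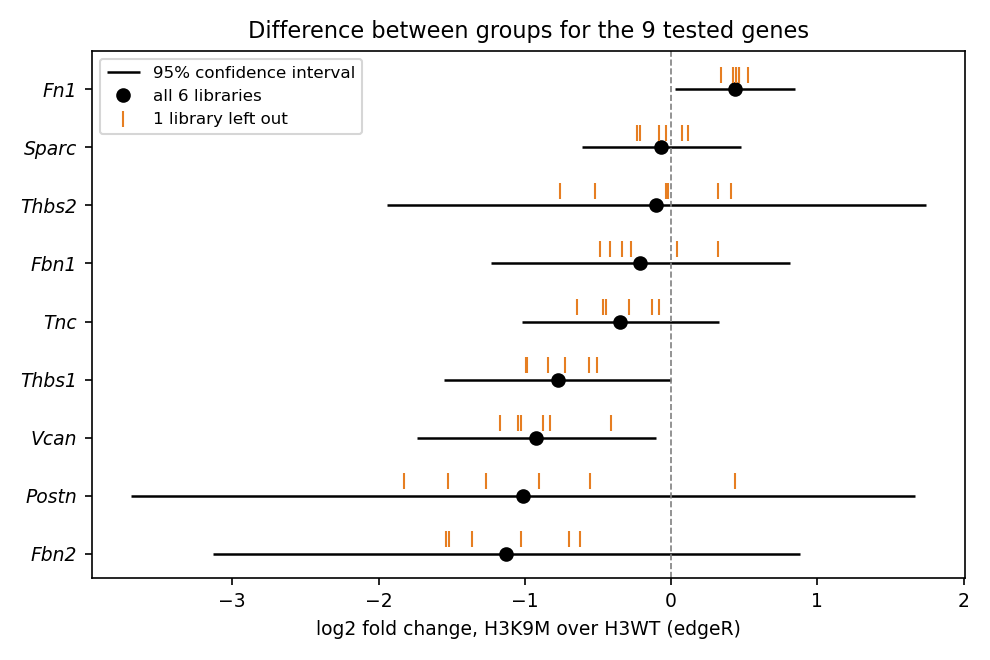
Log2 fold change of H3K9M over H3WT (edgeR) for the 9 tested genes, with 95% confidence intervals as lines and the value after leaving out each library in turn as orange marks. Fn1 lies to the right of 0, Vcan and Thbs1 to the left, with intervals that end at or near 0, and Postn, Thbs2 and Fbn2 have the widest intervals.

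Spon1 (chr7:113765998-114043370, plus strand) encodes F-spondin, which carries thrombospondin type 1 repeats. It had 0 counts in all 6 libraries. At 3 counts per library, this allows a level of up to 0.145 to 0.201 CPM, and no comparison between the groups was possible. Whether these zeros reflect a lack of transcript or the annotation used for counting cannot be told from the table, so the limit holds only if Spon1 reads could be counted.

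Apart from Fn1, the tested members overlapped between the groups, and several were low in the same 2 libraries. H3K9M replicate 3 held the lowest value of 6 of the 9 tested members and H3WT replicate 2 that of the other 3. For Postn, Thbs2, Sparc, Fbn1 and Fbn2 these were the 2 lowest libraries, a pair that 10.5% of all tested genes had as their lowest 2. This count was made after the values were seen. Relative to each gene's mean log2 CPM, H3K9M replicate 3 stood at -1.71 for Postn, -1.30 for Thbs2 and -2.59 for Fbn2. H3WT replicate 2 stood at -1.97, -1.39 and -0.57 for the same genes. Fn1 did not share this pattern, being highest in H3K9M replicate 3 (0.42) and lowest in H3WT replicate 2 (-0.27).

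**Figure D4:**
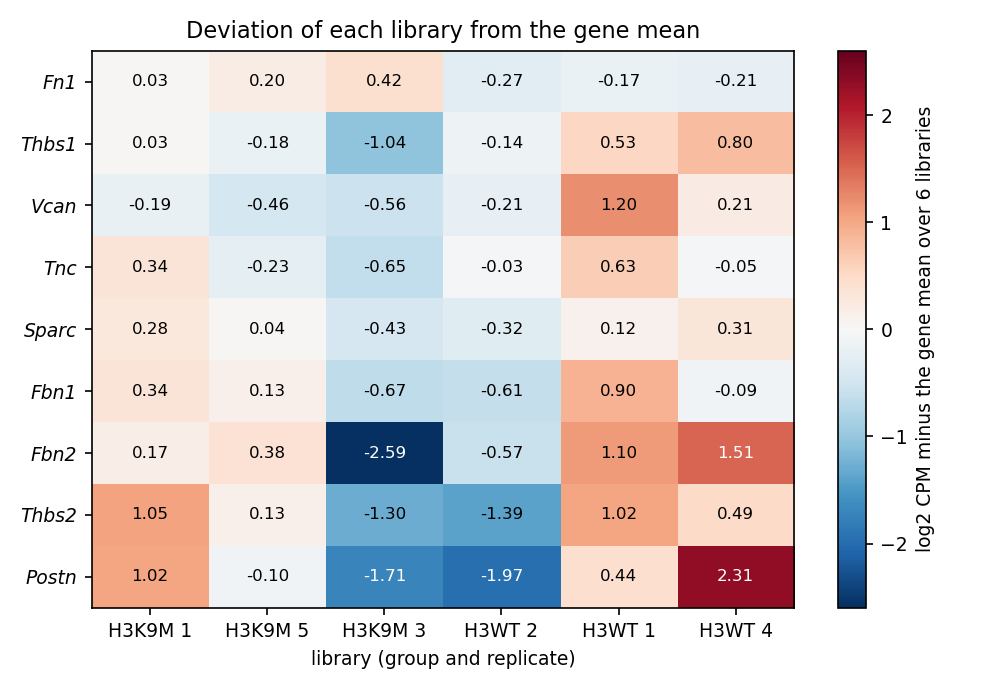
Log2 CPM of each gene in each library minus the gene's mean over the 6 libraries, with the libraries ordered so that H3K9M replicate 3 and H3WT replicate 2 are in the middle. Every row except Fn1 is negative in both middle columns, which are the lowest 2 for the rows from Sparc to Postn. Fn1 is positive in all 3 H3K9M columns and negative in all 3 H3WT columns.

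Some markers of other cell types were also low in these libraries and others were not. The summed level of 6 smooth muscle and pericyte markers was 681 CPM in H3K9M replicate 3 and 991 in H3WT replicate 2, against 2039 to 4219 in the other 4 libraries, a sum carried by Acta2 and Tagln. Rgs5, a pericyte marker on that list, was not low there, at 12.7 and 12.6 CPM against 4.94 to 15.5. That of the 8 fibroblast markers was 11846 and 9858 CPM in these 2 libraries, against 22979 to 34484 in the others, and consisted mostly of Col1a1, Col1a2 and Col3a1. Some other fibroblast markers went the opposite way and were highest in these 2 libraries: Pdgfra at 236 and 243 CPM (89.6 to 182 in the others), Dcn at 177 and 143 (41.1 to 78.9) and Lum at 144 and 101 (29.1 to 75.1). Thy1, also on that list, was lowest in these 2 libraries, at 96.9 and 22.6 CPM (166 to 265 in the others). The 13 chondrocyte markers summed to 7922 CPM in H3K9M replicate 3 and 19674 in H3WT replicate 2, against 7290 to 13846. This sum, on which the 2 libraries were not alike, was mostly Col2a1 (5521 and 14110 CPM). Col9a2 (23.5 and 100 CPM), Col9a3 (84.1 and 173), Col11a2 (113 and 346) and Lect1 (92.9 and 284) were highest of their group in both libraries. Acan, Col11a1 and Matn3 were lowest of their group in H3K9M replicate 3 and highest in H3WT replicate 2. The rest followed neither pattern. The part of all these markers in the members' pattern was not tested. In bulk RNA, fewer cells of a type and less RNA per cell cannot be told apart.

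With H3K9M replicate 3 and H3WT replicate 2 both left out, 1 of the 9 members passed the test, where 2.19% of all 13821 tested genes did. It was Fbn2, with an LFC of -1.02 (SE 0.17, edgeR adjusted p 0.0247, 2 libraries against 2). Thbs1 had -0.73 (adjusted p 0.0745), Vcan -1.09 (0.151) and Fn1 0.32 (0.316) in the same fit. These libraries were left out after the values were seen, and removing the low libraries of each group narrows the spread of the genes that are low there, Fbn2 included. The Fbn2 call is therefore a description of the remaining 4 libraries.

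For each member, the gene with the most similar profile was sought among 9451 genes with a mean of at least 10 CPM, as the smallest root mean square difference of centred log2 CPM over the 6 libraries. Thbs2 was nearest to Tagln, the smooth muscle protein transgelin (difference 0.156, where the Thbs2 profile itself had a root mean square of 1.00). Postn was nearest to Myom1, a sarcomere protein gene (0.42, own size 1.49), and Fbn2 to the sodium channel gene Scn3a (0.366, own size 1.32). Fn1 was nearest to Drap1 (0.055), Thbs1 to Rab32 (0.109), Vcan to Bcl3 (0.196), Tnc to Ccne1 (0.111), Sparc to Dzip1l (0.068) and Fbn1 to Abhd17c (0.154). No member's nearest gene was another member. With 6 libraries and this many candidates, a near profile is easily found, and it is given as a description.

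Postn and Thbs2 were each lowest in H3WT replicate 2 and next in H3K9M replicate 3, and their promoters are shown for that reason. Elsewhere they differed. Relative to its mean log2 CPM, Postn was highest in H3WT replicate 4 (2.31, Thbs2 0.49) and Thbs2 in H3K9M replicate 1 (1.05, Postn 1.02). The windows are the 250 bases before an annotated start (1 of 2 starts of Postn), 5′ to 3′ on the gene's strand, from RefSeq on GRCm38.p6. Capitals mark TATAAA on either strand, which reads TTTATA where it lies on the opposite strand.
Postn, chr3:54360857-54361106, plus strand: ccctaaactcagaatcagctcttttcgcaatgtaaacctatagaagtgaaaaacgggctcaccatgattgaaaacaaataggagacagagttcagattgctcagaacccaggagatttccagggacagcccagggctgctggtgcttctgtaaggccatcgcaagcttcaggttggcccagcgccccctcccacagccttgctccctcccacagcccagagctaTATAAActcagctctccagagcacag
Thbs2, chr17:14694263-14694512, minus strand: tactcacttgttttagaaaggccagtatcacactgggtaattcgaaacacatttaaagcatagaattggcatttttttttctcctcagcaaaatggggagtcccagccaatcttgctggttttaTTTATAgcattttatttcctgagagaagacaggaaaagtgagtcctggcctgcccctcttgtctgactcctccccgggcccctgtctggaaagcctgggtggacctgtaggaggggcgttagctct
The Postn window holds TATAAA once on its own strand, beginning 26 bases before the start. The Thbs2 window holds it once on the opposite strand, beginning 126 bases before the start. The windows of both annotated starts of Tnc overlap and hold the same single match, 126 and 205 bases before the starts. The windows of Fbn1, Sparc, Vcan and the other Postn start (chr3:54359017-54359266) have none. Windows of Fn1, Thbs1, Fbn2 and Spon1 were not examined. Of all 32851 promoter windows of this length, 12.4% hold the motif on either strand. These matches are a description of the letters.

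Genes that work with these glycoproteins were then examined as lists, beside a median LFC of -0.003 over all genes. No gene of any list passed the adjusted threshold, and the 3 with the smallest p in each list are named with values only. All 5 lists had more genes below 0 than above it, where 50.4% of all genes were below 0. The counts below stand beside shares of all tested genes of 12.2% at an unadjusted p under 0.05 (6.42% higher and 5.77% lower in H3K9M) and 19.4% without overlap. Among 17 tested relatives of the members (other thrombospondins, SPARC-family, spondin, tenascin and hyalectan genes), 12 had an LFC below 0, with a median of -0.26, and 3 had an unadjusted p under 0.05 (1 higher, 2 lower), against 12.2% of all genes. Leaving out H3K9M replicate 5 moved that median to -0.53, and leaving out H3WT replicate 4 to -0.47. It was -0.12 once GC content and transcript length were adjusted for. Smoc2, a SPARC-family gene, had 106, 96.0 and 156 CPM in H3K9M and 75.5, 50.6 and 79.6 in H3WT, without overlap. For Smoc2 the LFC was 0.80 (SE 0.24, adjusted p 0.274 by edgeR and 0.0647 by DESeq2). Its paralog Smoc1 leaned the other way, at -0.70 (adjusted p 0.302 by edgeR and 0.151 by DESeq2). Rspo2, a Wnt-enhancing relative with a thrombospondin repeat, had -1.77 (0.402 by edgeR and 0.279 by DESeq2).

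Among 15 tested receptors the median was -0.03 (0.03 with library size alone), with 8 below 0 and 1 at an unadjusted p under 0.05. Itga8, an integrin subunit that binds fibronectin and tenascin-C, had 6.10, 2.71 and 1.79 CPM in H3K9M and 18.0, 5.03 and 22.0 in H3WT, and H3WT replicate 2 lay within the range of H3K9M. Its LFC was -2.10 (SE 0.65, edgeR adjusted p 0.286, DESeq2 0.0282). Itgb1, a beta subunit shared by several but not all fibronectin-binding integrins, had 1724, 1880 and 1609 CPM against 1387, 1364 and 1480. Every H3K9M library was above every H3WT library (LFC 0.30, adjusted p 0.415 by edgeR and 0.2325 by DESeq2). Egfr had -0.28 (adjusted p 0.42 by edgeR and 0.441 by DESeq2), also without overlap.

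The 24 tested microfibril and elastic fibre partners had a median of -0.50, with 21 below 0 and 5 at an unadjusted p under 0.05, all lower in H3K9M, against 5.77% of all genes. That median was -0.31 without H3K9M replicate 3. Mfap2, which encodes a microfibril-associated glycoprotein that binds fibrillin, had 4.35, 2.37 and 2.19 CPM in H3K9M and 28.8, 8.56 and 33.0 in H3WT. Every H3WT library was above every H3K9M library. For Mfap2 the LFC was -2.99 (SE 0.55, edgeR adjusted p 0.17). It passed with DESeq2 (adjusted p 4.74e-06), without H3WT replicate 2 (0.0182) and with H3K9M replicate 3 and H3WT replicate 2 left out (0.00993). In the other 11 of 14 alternatives it did not pass, limma-voom (0.3155) among them. Adamtsl5, an ADAMTS-like protein gene, had 11.1, 20.2 and 15.7 CPM against 39.2, 56.2 and 42.7, without overlap, and in each group the library that was low for Postn and Thbs2 was the highest. The LFC of Adamtsl5 was -1.55 (SE 0.25, edgeR adjusted p 0.17). It passed with DESeq2 (1.82e-05) and when all genes with a count were tested (0.0101). It also passed with H3K9M replicate 3 and H3WT replicate 2 left out (0.0197), and did not in the other 11 of 14 alternatives. Fbln1, encoding fibulin-1, had -0.97 (adjusted p 0.242; DESeq2 0.0393), also without overlap.

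The 13 tested versican and hyaluronan partners had the lowest median of the 5 lists, -1.08, with 11 below 0 and 3 at an unadjusted p under 0.05, all lower in H3K9M, against 5.77% of all genes. Without H3K9M replicate 3 and H3WT replicate 2 the median was -0.66. Has2, a hyaluronan synthase, had 15.0, 13.2 and 12.0 CPM in H3K9M and 22.3, 22.5 and 20.7 in H3WT. Both groups of Has2 values were tight and did not overlap (LFC -0.70, SE 0.18, adjusted p 0.236 by edgeR and 0.0494 by DESeq2). Hapln4, a hyaluronan link protein, had -1.78 and Adamts9, a protease that cleaves versican, -1.92 (adjusted p 0.239 and 0.322, edgeR; 0.0254 and 0.0366, DESeq2). In both genes the groups did not overlap.

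The 18 tested TGF-beta ligands, receptors and matrix targets had a median of -0.24, with 14 below 0. An unadjusted p under 0.05 was reached by 7 of them, 2 higher and 5 lower in H3K9M, against 12.2% of all genes, and 8 had groups without overlap, against 19.4%. Eng, encoding the co-receptor endoglin, had 53.9, 51.6 and 50.5 CPM in H3K9M and 77.5, 88.7 and 74.1 in H3WT. Tgfbr3, the co-receptor betaglycan, had 80.9, 94.6 and 67.5 against 173, 126 and 124. The LFC was -0.62 for Eng and -0.80 for Tgfbr3 (SE 0.12 and 0.18, adjusted p 0.18 and 0.206 by edgeR, 0.00635 and 0.0121 by DESeq2). Skil, a feedback inhibitor of SMAD signalling, had 72.0, 79.5 and 85.8 CPM against 57.2, 52.5 and 45.5 (0.61, adjusted p 0.206 by edgeR and 0.0242 by DESeq2). In each of these 3 genes the groups did not overlap.

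**Figure D5:**
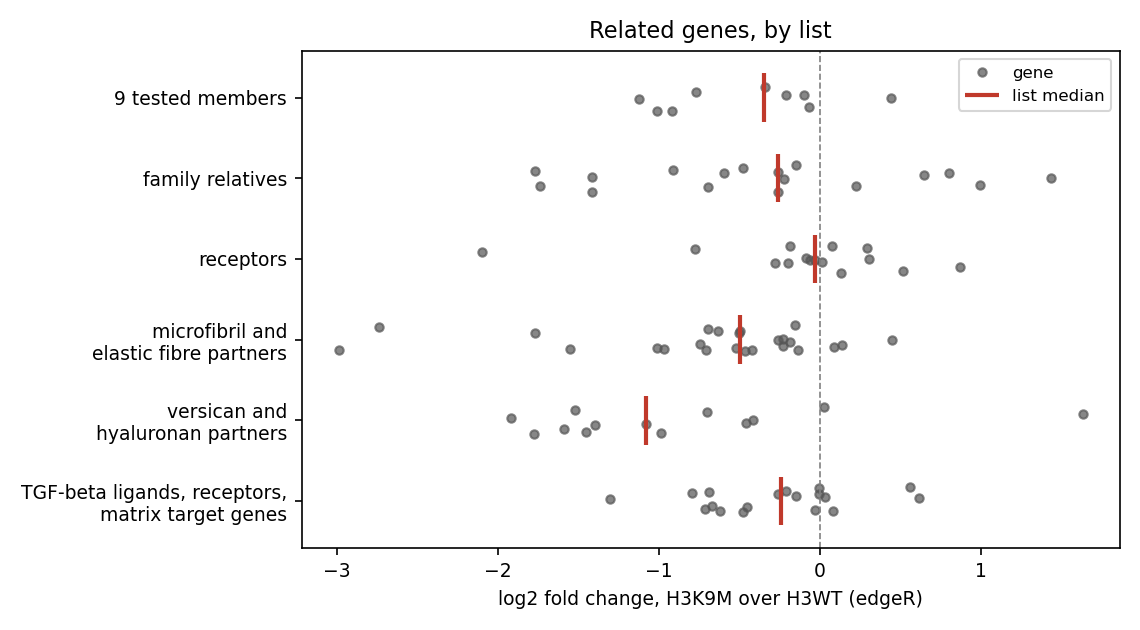
Log2 fold change of H3K9M over H3WT (edgeR) of each tested gene, grouped by list, with the list median as a red bar. The medians run from -1.08 for the versican and hyaluronan partners to -0.03 for the receptors, and the members' median is -0.35.

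Markers of other lineages were compared in the same way. All 13 tested chondrocyte markers had an LFC below 0 (median -1.03). Of these, 2 had an unadjusted p under 0.05, against 12.2% of all genes. The groups overlapped for each, where 19.4% of all genes had no overlap. The median was -0.07 for 7 fibroblast markers, -1.22 for 5 osteoblast markers and 0.30 for 5 tendon markers. It was -0.34 for 6 smooth muscle and pericyte markers and -0.16 for 3 adipocyte markers. An unadjusted p under 0.05 was reached by 2 osteoblast markers, Ibsp and Sp7, both lower in H3K9M (5.77% of all genes). Of the tendon markers, 1 was higher (Scx, LFC 0.91, against 6.42%) and 1 lower (Fmod, -0.93). Ibsp, Mkx and Lpl (lower) and Scx and Rgs5 (higher) had no overlap, against 19.4% of all genes. Of 4 tested skeletal muscle markers 3 (Myod1, Des and Myh3) were higher in H3K9M at an unadjusted p under 0.05, against 6.42% of genes. All 3 had every H3K9M library above every H3WT library, as 10.7% of all genes did. Myod1 (0, 20 and 0 counts in H3WT) and Myh3 (12, 0 and 0) could pass the low-count filter only through their H3K9M libraries. The count of 3 among 4 is therefore a description. The summed level of the 8 genes on that list was 154, 223 and 20.97 CPM in H3K9M and 11.1 to 31.7 in H3WT. On this sum H3K9M replicate 5 was within the range of H3WT. Acta1 was its largest part in H3WT replicates 1 and 4, at 26.2 and 24.0 CPM. For Myod1 (4.29 CPM), Des (8.775) and Myh3 (1.735), H3K9M replicate 5 was above every H3WT library (up to 1.04, 6.80 and 0.674). Of the untested markers, Myog had 4.02, 9.42 and 0.204 CPM in H3K9M and no count in H3WT, Actc1 (up to 1.26 CPM) and Ckm (up to 0.871) were detected only in H3K9M libraries, and Myf5 was at 0 in every library. The part of these markers in the members' differences was not tested.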

How the data were processed

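Polyadenylated RNA of 6 samples was sequenced after library preparation with a Tecan mRNA kit, per the labels' protocols. The authors deposited raw read counts per gene symbol. HISAT2, featureCounts, DESeq2 and mm10 are named in the submitters' processing notes. Versions, annotation and strand setting are not given in the sources used here. Each of the 6 columns matched 1 sample title, and the groups were taken from the titles.

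The test was edgeR's quasi-likelihood test (edgeR 4.0.16, R 4.3.3), fitted robustly to all libraries after filterByExpr and TMM scaling, with the group as its single factor. Benjamini-Hochberg adjustment ran over 13761 genes (threshold 0.05). DESeq2 1.42.0, limma-voom (limma 3.58.1), other scalings and filters, a loess offset (span 0.5) on transcript length and GC content, and leaving out libraries were the alternatives. The fit was tested on simulated data. Lengths came from the longest GENCODE M21 transcript, found for 96.7% of tested genes. Similar transcripts were searched with blastn 2.17.0.

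All 10 members are reported. From each list of related genes, those past the threshold or otherwise the 3 with the smallest p are named. The nearest-profile rule used log2(CPM + 0.5). Members and lists were chosen with earlier results of these data known. Cnmd was matched under its older symbol Lect1. Of the listed symbols, Ccn1 and Ccn2 were counted under Cyr61 and Ctgf.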

Additional observations from a re-analysis of the deposited data

How the results depend on the processing

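Leaving out H3K9M replicate 3 with H3WT replicate 2, the ratio of Fn1 to Thbs1 and the alternatives for list genes were added after the data were seen. The number of genes past the threshold was 0 in the reported fit (1677 at an unadjusted p under 0.05), 390 with DESeq2, 36 when all genes with a count were tested, 302 with both libraries left out, and 0 to 91 when 1 library was left out (91 without H3WT replicate 2, 2 without H3K9M replicate 3). The cause was not tested. The number of members past it was 0, and 1 with both libraries left out, when Fbn2 had -1.02. Members at an unadjusted p under 0.05 numbered 3, falling to 1 when all genes with a count were tested and to 1 with the length and GC offset, and ranged from 0 to 4 when 1 library was left out (0 without H3K9M replicate 3, H3K9M replicate 5 or H3WT replicate 1, and 1 without H3WT replicate 4).

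Of 126 values (9 members under 14 alternatives), 116 kept their sign and side of the threshold and 9 turned sign. With the length and GC offset Thbs2 was 0.019 and Fbn1 0.078. When 1 library was left out, values ran from -1.82 to 0.44 for Postn (above 0 without H3WT replicate 4), from -0.76 to 0.41 for Thbs2 and -0.48 to 0.32 for Fbn1 (above 0 without H3K9M replicate 3 or H3WT replicate 1), and from -0.23 to 0.12 for Sparc (above 0 without H3K9M replicate 3 or H3WT replicate 4). The members' median was -0.15 with the offset. With 1 library left out it ranged from -0.76 (without H3K9M replicate 1) to -0.08 (without H3WT replicate 1). The receptor list's median was 0.03 with library size alone, 0.04 with the offset, 0.09 with both libraries left out, and -0.07 to 0.09 when 1 was left out. None of the 15 list genes turned sign, and 17 of their 210 values passed the threshold. The ratio differences kept their sign, at -1.13 to -0.26 for Thbs1 to Thbs2, 0.57 to 1.66 for Fbn1 to Fbn2 and 0.80 to 1.53 for Fn1 to Thbs1.

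No paired analysis was possible because the groups share only replicate number 1. The 9 tested members had at least 250 counts in each library.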
